A study of Homo sapiens with 9 samples.

Results

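The subject here is the unstimulated state of a human trabecular meshwork cell line, as measured in 6 of the 12 libraries of a hormone study. The 6 libraries are the vehicle controls. 3 of them stand in the table of the dexamethasone (DEX) experiment and are called the Veh set, and 3 stand in the table of the norepinephrine (NE) experiment and are called the DMSO set. The libraries were taken by name.

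The cells are immortalized human primary trabecular meshwork cells from a commercial supplier. Per the labels, they were grown on plates coated with type I collagen to 80 to 90% confluence, kept for 24 h in a medium without serum, and then given DMSO for 6 h. The labels give this protocol for the labelled vehicle samples, and by their column names neither set received DEX or NE. The Veh columns bear the names of the 3 labelled vehicle samples, while the DMSO columns were placed with the vehicle libraries by their name, which no labelled sample bears. For the DMSO set only DMSO and 6 h are given, by the column names. Whether its coating, confluence and time without serum were the same is not stated. The labels do not say whether the libraries of a set came from separate cultures, so p-values measure only the spread between these libraries. Set, table and any sequencing or processing run coincide, so a difference between cultures and a difference between runs cannot be told apart.

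The trabecular meshwork is the porous filter in the chamber angle that aqueous humour crosses as it leaves the eye. Its cells keep the matrix beams of that filter, contract, take up debris, and answer heat, oxidants, glucocorticoids and TGF-beta with changes in matrix and chaperone genes. In culture they are elongated, vimentin-positive cells of neural crest origin. Myocilin (MYOC) and ANGPTL7 are known markers of the tissue that are often low in unstimulated culture.

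Depth was 19326830 to 26091949 expected counts in the Veh libraries and 32184685 to 36216506 in the DMSO libraries. Mitochondrially encoded genes took 3.63% to 3.92% of the counts in the Veh set and 1.40% to 1.52% in the DMSO set. The treated libraries followed their tables, with 3.61% to 3.89% in the DEX libraries and 1.60% to 1.67% in the NE libraries. Among the vehicle libraries, DMSO 1 stood apart from its set: the chi-square per degree of freedom was 17.4 and 21.3 against DMSO 2 and DMSO 3, and 2.94 between those last 2. The Veh pairs gave 3.15 to 8.24, so no library duplicated another.

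Mitochondrially encoded genes and the listed ribosomal protein genes were left out of the ranks and counts of this paragraph. Among the other protein-coding genes, the most abundant transcripts per kb belonged to the cytoskeleton, protein synthesis, glycolysis and iron storage. Levels in this paragraph and the next are CPM (counts scaled to a common library size) per kb of transcript, as mean ± SD over the 3 libraries of each set. TMSB10, which encodes an actin-monomer binding thymosin, led these genes in both sets, at 7521 ± 523 in the Veh set and 4867 ± 720 in the DMSO set. The translation factor EEF1A1 was at 3775 ± 156 and 3512 ± 337, and the glycolytic enzyme GAPDH stood at 3188 ± 118 and 3256 ± 125. Ferritin heavy chain (FTH1), an iron store, was at 4052 ± 191 in the Veh set and 2201 ± 189 in the DMSO set. Vimentin (VIM), the mesenchymal intermediate filament, was at 1363 ± 78.9 and 2056 ± 86.4. Of the 20 highest genes in the Veh set, 18 were also among the 20 highest in the DMSO set, and 89 of the top 100 were shared. In all, 11278 of 19543 protein-coding genes reached 1 CPM per kb in both sets, and 633 reached 100.

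The matrix that the line made at rest was rich in fibronectin, type I, IV and VI collagen and laminin. FN1 (fibronectin) was at 843 ± 64.1 in the Veh set and 986 ± 128 in the DMSO set. COL1A1 was at 305 ± 5.27 and 225 ± 8.99, and COL6A1 at 178 ± 3.42 and 173 ± 3.14. Integrin beta 1 (ITGB1), the shared subunit of many matrix receptors, stood at 567 ± 11.1 and 502 ± 2.08. Cell cycle genes were abundant in both sets: each of the 30 listed genes of G2 and mitosis reached 1 CPM per kb, with a median of 76.8. Among receptor tyrosine kinases AXL was the most abundant of the list, at 190 ± 3.24 and 228 ± 5.91.

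Set against its label, the line carried some listed trabecular meshwork markers, while the secreted tissue markers MYOC and ANGPTL7 were barely detected. Of 26 trabecular meshwork markers, 11 reached 1 CPM per kb in both sets, with a median of 0.32. That median was no higher than the 0.33 of corneal endothelium and keratocyte markers. It was 0.24 for endothelial and 24.5 for mesenchymal markers, so the trabecular meshwork list as a whole did not set the line apart. FOXC1, a forkhead factor of anterior segment development, was at 20.7 ± 0.556 in the Veh set and 14.99 ± 0.162 in the DMSO set. CYP1B1, a cytochrome P450 linked to congenital glaucoma, was at 47.3 ± 2.57 and 57.3 ± 2.92. By contrast MYOC lay at 0.0333 ± 0.0316 and 0.0171 ± 0.0297, ANGPTL7 at 0.0802 ± 0.0340 and 0.0898 ± 0.0196, and MGP (matrix Gla protein) at 1.75 ± 0.626 and 0.368 ± 0.0934. Of the 14 trabecular meshwork markers that passed the filter on low counts, 9 (64.3%) were called lower in the DMSO set and 3 higher, with a median log2 difference of -0.48, by the edgeR test given below, which called 24.3% of all genes lower. CHI3L1, a chitinase-like glycoprotein, had a log2 difference of -2.77 ± 0.17 and FOXC2, a forkhead factor, of 0.97 ± 0.09. Of 13 mesenchymal markers, 12 reached 1 CPM per kb.

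Defining markers of endothelial, immune and epithelial cells were at or near 0 in both sets, apart from simple keratins, while markers of smooth muscle and pericytes were present. Only EGFL7 and TIE1 of 15 endothelial markers reached 1 CPM per kb in both sets, and PECAM1, CDH5 and VWF stayed below 0.31. CD68, a lysosomal protein that fibroblasts also make, was the only one of 14 immune markers to do so, while PTPRC stayed below 0.22 and CD3E was at 0. Of 15 epithelial markers, the simple keratins KRT7, KRT8, KRT18 and KRT19 reached the level, while EPCAM and CDH1 were below 0.83. Of 13 smooth muscle and pericyte markers, 11 reached the level. TAGLN was at 359.7 ± 16.1 in the Veh set and 102 ± 7.82 in the DMSO set, and ACTA2 at 40.8 ± 0.627 and 11.2 ± 0.568, while MYH11, the smooth muscle myosin, was at 0.445 ± 0.0659 and 0.407 ± 0.119. Of 14 corneal endothelium and keratocyte markers, 5 did so, among them ALCAM, CDH2 and COL8A1, and KERA, the keratocyte marker, was at 0.

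**Figure D1:**
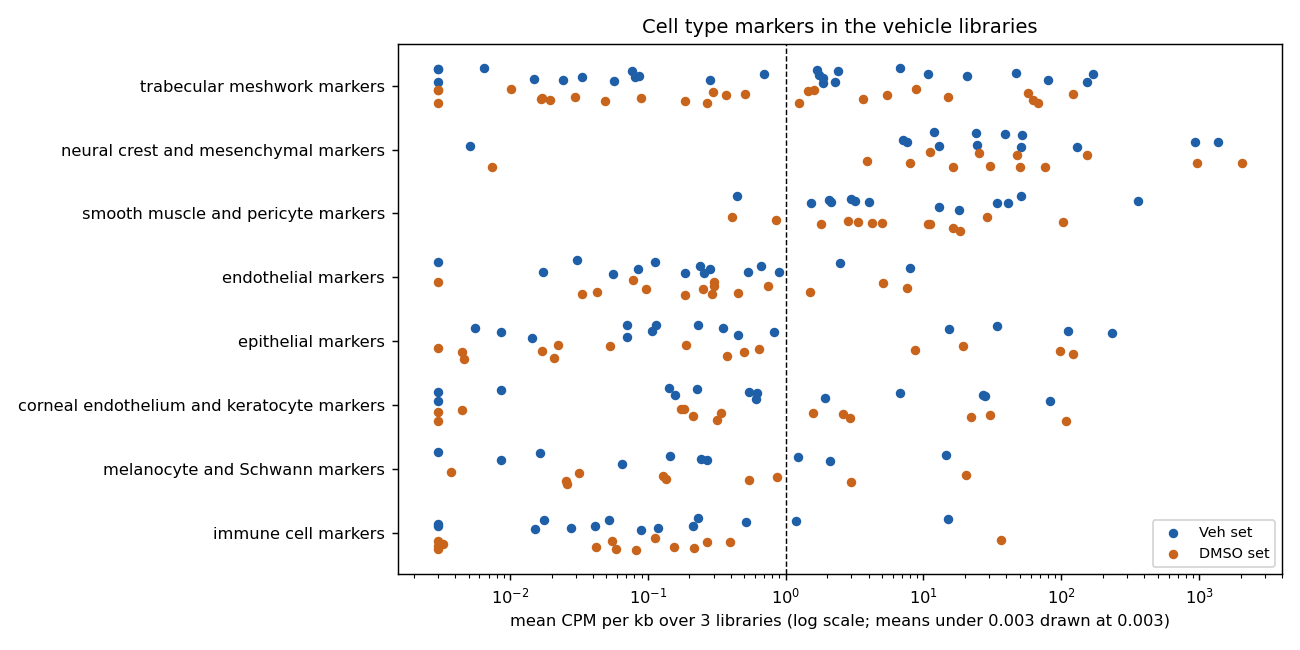
Mean CPM per kb of each marker gene (log axis) in the Veh set (blue) and the DMSO set (orange), with 1 row per marker list and a dashed line at 1 CPM per kb. Mesenchymal markers lie to the right of the line except 1 gene, while most endothelial, immune and epithelial markers lie to its left in both sets.

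Between the 2 sets, a large share of the transcriptome differed beyond the spread of the libraries, mostly by small factors. edgeR's quasi-likelihood test with Benjamini-Hochberg adjustment called 7460 of 15319 genes tested (48.7%) at an adjusted p below 0.05. Of these, 3742 (24.4% of the genes tested) were higher in the DMSO set and 3718 (24.3%) were lower. Differences past 2-fold were found for 1048 genes (6.84%), of which 388 (2.53%) were higher and 660 (4.31%) were lower. The median log2 difference over all genes was -0.01. For 57.5% of the genes tested the 3 values of one set did not overlap those of the other. In the text below, log2 differences are always DMSO set minus Veh set, levels without another unit are CPM, and each adjusted p comes from this edgeR test. Since so many genes were called, a list's count is read against those shares of the background. DMSO 1 lay on the Veh side of the mean of DMSO 2 and DMSO 3 for 4420 of 6753 called genes (65.5%) with an average log2 CPM of at least 1.

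Short and GC-rich transcripts were lower in the DMSO set as a class. The median log2 difference was -0.18 in the bin of genes with the shortest transcripts (134 to 1214 bases) and 0.18 in the bin with the longest. By GC content it ran from 0.10 in the lowest of 8 bins to -0.15 in the highest. These shifts are as large as some list medians given below, such as those of the unfolded protein, actin, ribosomal protein and nuclear respiratory lists. A fit with GC and length removed called 7986 genes, 4274 higher and 3712 lower, and kept 6415 of the 7460 calls with their direction.

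**Figure D2:**
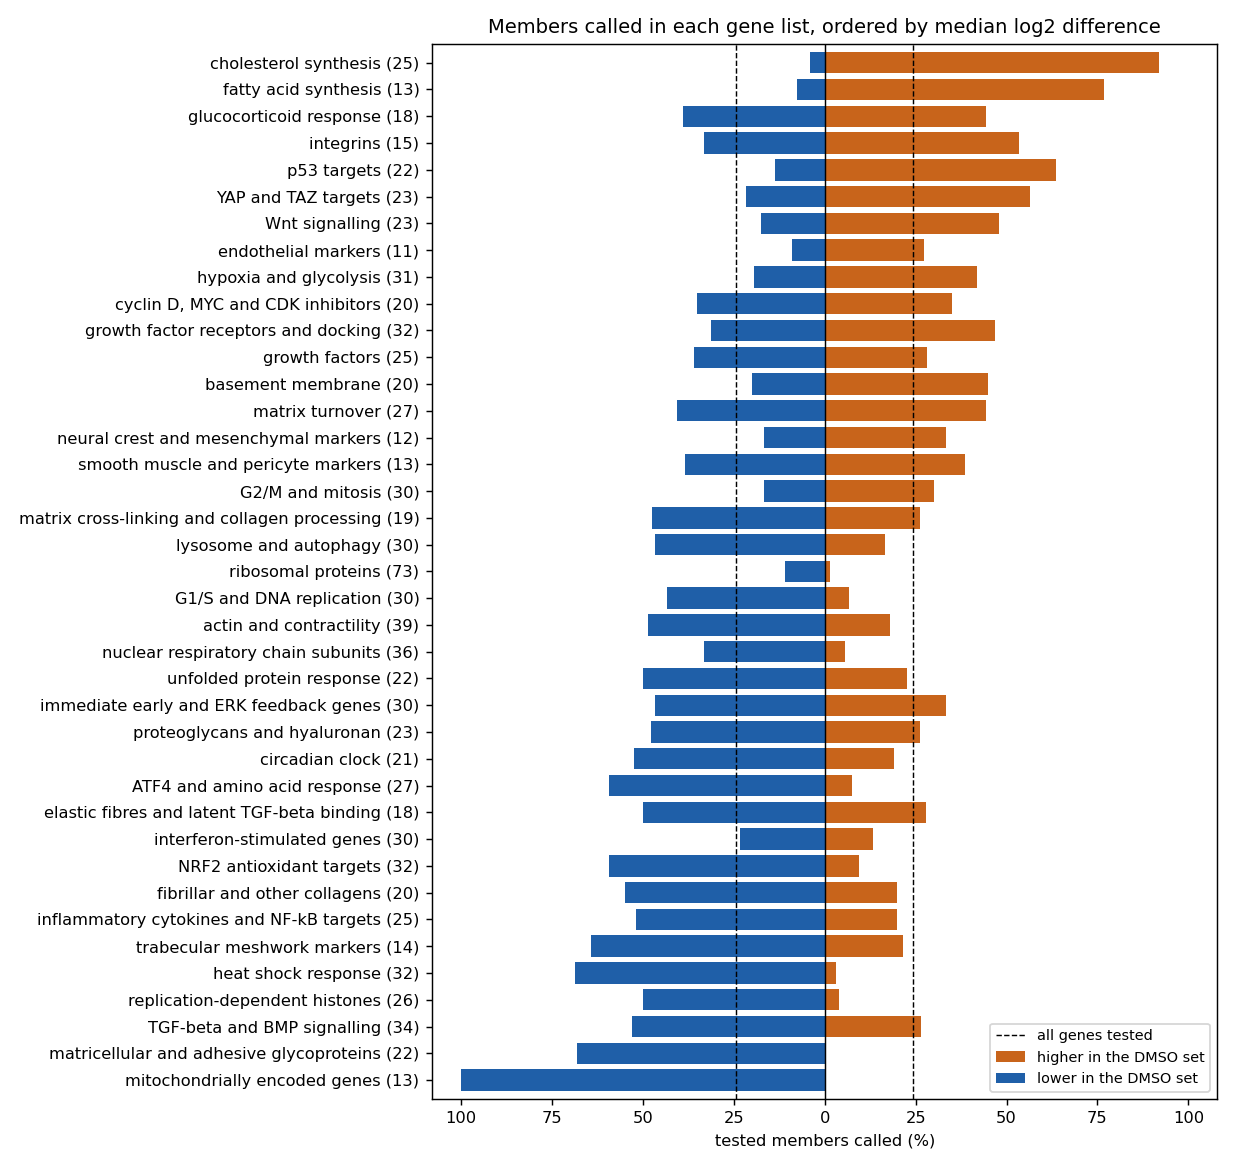
Share of tested members of 39 gene lists that were called higher (orange, to the right) or lower (blue, to the left) in the DMSO set, in percent, with the number tested in parentheses and dashed lines at the shares over all genes tested. Cholesterol synthesis stands at the top with 92.0% higher, and mitochondrially encoded genes at the bottom with 100% lower.

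Chaperone genes were mostly higher in the Veh set. Heat shock proteins refold or hold damaged proteins, and the inducible ones are switched on by HSF1 when unfolded protein builds up. All 32 heat shock genes of the list were tested, and 22 (68.8%, against 24.3% of all genes) were lower in the DMSO set, with 1 higher and a median log2 difference of -0.55. The higher one, IER5, differed by 0.28 and lost its call without Veh 3 (adjusted p = 0.0518) and with GC and length removed (adjusted p = 0.0803). HSPA6, a strictly inducible HSP70 on chromosome 1, was measured at 23.3, 23.8 and 20.96 CPM in Veh 1 to 3 and at 0.497, 0.377 and 0.414 CPM in DMSO 1 to 3. The sets were far apart, at 52.6-fold, with a log2 difference of -5.72 ± 0.12 (SE; adjusted p = 1.90e-08). HSPA1A, the major inducible HSP70, had 612, 603 and 567 CPM in the Veh libraries and 69.3, 64.0 and 70.2 in the DMSO libraries, a log2 difference of -3.13 ± 0.06.

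HSPA1A and its near-identical copy HSPA1B share reads, so the split between them is uncertain. HSPA1B was counted at 31.8, 34.7 and 27.5 CPM and at 9.996, 0.0539 and 0.359 CPM, and its own difference did not pass the test. The sum of both genes was 594 to 644 CPM in the Veh set and 64.1 to 79.3 CPM in the DMSO set, 8.77-fold higher in the Veh set. The other called members of the list differed less than HSPA6 and HSPA1A. CRYAB, a small heat shock protein studied in trabecular meshwork, had a log2 difference of -1.67 ± 0.09, HSPH1 of -1.02 ± 0.04, DNAJB1 of -0.95 ± 0.05 and HSPA8 of -0.69 ± 0.05. HSP90AA1 (-0.21 ± 0.08) and the regulator HSF1 itself (0.08 ± 0.06) did not pass the test.

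The promoters of HSPA6 and HSPA1A are shown because they had the largest called differences of the heat shock list. The windows are 250 bases before to 50 after the gene start, from RefSeq on GRCh38.p14, at chr1:161524290-161524589 (plus strand) and chr6:31815293-31815592 (plus strand). Capitals mark GAANNTTC, the paired repeat at the core of a heat shock element. These letters read the same on both strands.
HSPA6: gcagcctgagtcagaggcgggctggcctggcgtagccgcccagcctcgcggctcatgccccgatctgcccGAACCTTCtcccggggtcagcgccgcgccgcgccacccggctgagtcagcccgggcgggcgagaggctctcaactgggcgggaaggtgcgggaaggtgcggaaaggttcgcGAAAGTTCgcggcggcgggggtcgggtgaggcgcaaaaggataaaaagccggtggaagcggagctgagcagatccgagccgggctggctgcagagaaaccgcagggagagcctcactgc
HSPA1A: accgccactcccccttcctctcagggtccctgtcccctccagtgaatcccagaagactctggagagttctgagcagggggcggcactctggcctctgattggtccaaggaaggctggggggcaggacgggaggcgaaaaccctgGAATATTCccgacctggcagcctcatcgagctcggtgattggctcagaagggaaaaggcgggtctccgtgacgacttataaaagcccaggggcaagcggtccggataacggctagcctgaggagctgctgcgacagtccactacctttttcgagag
For each gene the window with the most matches is shown. HSPA6 held 2 matches and HSPA1A held 1. Of the 28 heat shock genes with a RefSeq window, 17 (60.7%) had at least 1 match, against 2241 of 27305 genes (8.2%). A match is a run of letters, not a measured binding site.

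Genes of the oxidant response were lower in the DMSO set as well. NRF2 is the factor that turns on enzymes for haem breakdown, iron storage and glutathione supply. Of 32 tested of 33 listed targets, 19 (59.4%) were lower, 3 were higher and the median log2 difference was -0.34. The number higher was 1 without Veh 1, Veh 2, DMSO 2 or DMSO 3. HMOX1, haem oxygenase on chromosome 22, was at 438, 434 and 366 CPM in Veh 1 to 3 and at 24.96, 23.4 and 24.7 CPM in DMSO 1 to 3. Every Veh library lay far above every DMSO library, 16.9-fold on average, with a log2 difference of -4.08 ± 0.08 (adjusted p = 1.90e-08). The ferritin genes FTH1 (-0.88 ± 0.07) and FTL (-0.84 ± 0.07), the quinone reductase NQO1 (-0.74 ± 0.07) and the NRF2 target OSGIN1 (-1.61 ± 0.10) were lower too. NFE2L2, which encodes NRF2, differed by -0.40 ± 0.04, and TXNRD1 (thioredoxin reductase) by -0.35 ± 0.05. Members of the list such as GSR, CAT, PGD and KEAP1 did not pass the test.

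The ATF4 response was mostly lower in the DMSO set, and other stress programmes were called both ways. Among 27 tested genes of the ATF4 and amino acid response, 16 (59.3%) were lower and 2 higher, with a median of -0.24, led by ATF3, an early stress factor, at 47.5, 48.2 and 42.0 against 10.4, 9.89 and 10.1 CPM. The number higher was 5 with GC and length removed and 1 without Veh 2, Veh 3 or DMSO 2. Of 22 unfolded protein response genes, 11 (50.0%) were lower and 5 (22.7%) higher, or 3 higher once GC and length were removed. XBP1, a factor whose mRNA the sensor IRE1 splices, had a log2 difference of -0.76 ± 0.08 and CREB3L1, a secretory pathway factor, of 0.79 ± 0.05. Metallothioneins, the zinc and copper buffers, split: MT1X was at 38.1, 34.8 and 28.8 against 20.3, 16.2 and 14.7 CPM, while MT2A was at 590, 525 and 466 against 1335, 1135 and 1067 CPM.

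Targets of p53 went the other way from the chaperones. Of 22 tested, 14 (63.6%, against 24.4% of all genes) were higher in the DMSO set and 3 were lower, with a median log2 difference of 0.35. CDKN1A, the p21 inhibitor of cyclin-dependent kinases, was at 71.9, 73.0 and 65.7 CPM in the Veh set and 146, 137 and 140 CPM in the DMSO set. MDM2, the ubiquitin ligase of p53, was at 67.8, 64.7 and 68.9 against 112, 122 and 124 CPM. Both genes showed no overlap between sets, with log2 differences of 1.01 ± 0.05 and 0.83 ± 0.06.

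**Figure D3:**
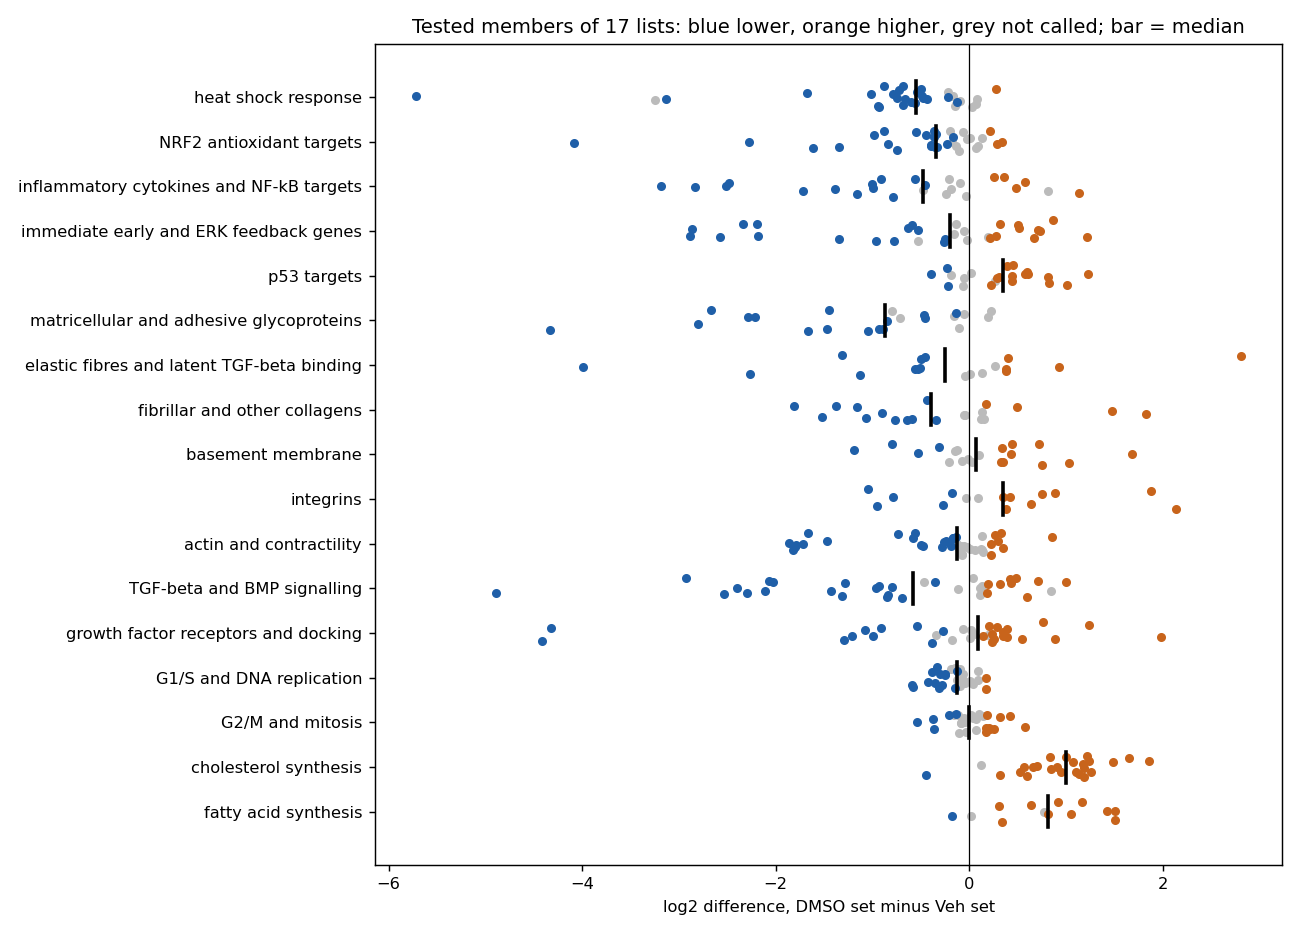
Log2 difference (DMSO set minus Veh set) of each tested member of 17 gene lists, with called members in blue (lower in the DMSO set) or orange (higher), members that did not pass the test in grey, and a black bar at each list's median. Chaperones and NRF2 targets lie mostly left of 0, sterol genes almost wholly to its right, and matrix lists spread to both sides.

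Several immediate early and inflammatory genes were lower in the DMSO set, while other members of both lists were higher. Immediate early genes are transcribed within minutes of a stimulus without new protein. NR4A1, an orphan nuclear receptor, was at 47.8, 45.8 and 40.7 CPM in the Veh set and 6.30, 6.198 and 5.96 CPM in the DMSO set. FOS was at 25.7, 23.2 and 21.3 against 4.19, 3.96 and 3.61 CPM, and the phosphatase DUSP1 at 94.0, 85.2 and 77.8 against 19.2, 18.6 and 18.3 CPM. All 3 genes separated the sets by more than 4-fold on the fitted scale, at log2 differences of -2.86 ± 0.08, -2.58 ± 0.10 and -2.19 ± 0.08. The list as a whole moved both ways, with 14 of 30 tested (46.7%) lower and 10 (33.3%) higher. ETV4, an ETS factor downstream of ERK, was higher at 1.22 ± 0.10, and FOSL1 at 0.87 ± 0.05.

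Of 25 tested inflammatory and NF-kB genes, 13 (52.0%) were lower and 5 were higher, with a median of -0.47. PTGS2, the inducible cyclooxygenase, was at 36.7, 35.8 and 32.9 against 5.77, 6.602 and 6.43 CPM. The neutrophil chemokine CXCL8 was at 42.7, 39.5 and 33.7 against 14.2, 10.3 and 10.7 CPM, and IL6 at 6.33, 6.19 and 5.17 against 1.21, 0.808 and 1.08 CPM. PTX3, a pattern recognition protein, was higher in the DMSO set, at 1.14 ± 0.10. ICAM1 (0.49 ± 0.11) and IL1B (0.36 ± 0.08) were higher too. Interferon-stimulated genes were called higher less often than all genes: of 30 tested, 4 (13.3%, against 24.4%) were higher. On the lower side there were 7 (23.3%, against 24.3%). OASL was higher (1.68 ± 0.08), and IFI6 varied within the Veh set itself, from 53.2 to 100.3 CPM. The number lower became 14 without Veh 1.

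Matrix genes differed in both directions, with many matricellular proteins lower in the DMSO set and some large structural chains higher. Matricellular proteins sit in the matrix and tune adhesion and growth factor access. Of 26 listed, 22 were tested, 15 (68.2%) were lower, the other 7 did not pass the test and the median log2 difference was -0.86. VTN (vitronectin), an adhesive glycoprotein, was at 14.03, 13.4 and 14.6 CPM in the Veh set and 0.962, 0.512 and 0.635 CPM in the DMSO set, a 20.1-fold difference. IGFBP5, an IGF binding protein of the matrix, was at 73.4, 75.0 and 76.6 against 10.1, 10.8 and 11.3 CPM. These 2 genes were high in each Veh library and low in each DMSO library. TGFBI (-1.45 ± 0.04), THBS2 (-1.47 ± 0.04), POSTN (-1.66 ± 0.12) and SPARC (-0.84 ± 0.05) were lower too, while FN1 (0.22 ± 0.10), TNC and CCN2 did not pass the test.

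Elastic fibre and microfibril genes differed in both directions. Latent TGF-beta binding proteins tether the inactive cytokine to fibrillin microfibrils. LTBP1, on chromosome 2, was at 49.0, 46.8 and 49.1 CPM in Veh 1 to 3 and at 329, 344 and 346 CPM in DMSO 1 to 3. The DMSO libraries were 7.03-fold higher, a log2 difference of 2.81 ± 0.05 (adjusted p = 1.54e-08). The microfibril gene FBN2 was higher at 0.93 ± 0.15. MFAP5, a microfibril-associated glycoprotein, was at 20.8, 23.7 and 25.5 against 1.15, 1.21 and 2.01 CPM. The fibulins FBLN1 (-1.13 ± 0.05), FBLN2 (-2.26 ± 0.08) and FBLN5 (-1.31 ± 0.07), which link elastic fibres to cells, were lower. Of 18 tested genes of this list, 9 (50.0%, against 24.3% of all genes) were lower and 5 (27.8%, against 24.4%) higher.

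Among collagens, chains of types I and III were lower and COL6A3 was higher in the DMSO set. COL3A1 was at 224, 220 and 240 CPM in the Veh set and 106, 110 and 110 CPM in the DMSO set. COL1A1 differed less, at 2014, 2070 and 2080 against 1448, 1532 and 1565 CPM. COL6A3, a chain of the beaded microfibril, was at 94.7, 105.4 and 106 against 329, 376 and 381 CPM, a log2 difference of 1.83 ± 0.07, while its partners COL6A1 and COL6A2 did not pass the test. Of 20 collagens tested, 11 (55.0%) were lower and 4 higher. Biglycan (BGN), a small proteoglycan, was lower at -1.67 ± 0.06.

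In the basement membrane, genes were called in both directions, and the type IV collagen chains differed among themselves. COL4A1 was at 681, 690 and 749 CPM in the Veh set against 290, 320 and 319 CPM in the DMSO set. LAMA4, a laminin alpha chain of mesenchymal and vascular cells, was at 206, 213 and 222 against 397, 457 and 459 CPM. The log2 differences were -1.19 ± 0.06 and 1.04 ± 0.07. COL4A6 (1.69 ± 0.06) and LAMA5 (0.76 ± 0.08) were higher, and COL4A2 (-0.53 ± 0.06) was lower. Of 20 tested genes, 9 (45.0%) were higher and 4 (20%) lower.

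Matrix turnover genes were called in both directions. Of 27 tested, 12 (44.4%, against 24.4% of all genes) were higher and 11 (40.7%, against 24.3%) lower. The membrane metalloprotease MMP15 was at 66.4, 64.4 and 64.1 CPM in the Veh set and 10.2, 9.24 and 10.02 CPM in the DMSO set. PLAT, tissue plasminogen activator, was higher in the DMSO set at 882, 776 and 786 against 342, 309 and 300 CPM, and PLAU, urokinase, had a log2 difference of 1.29 ± 0.09. TIMP3, an inhibitor of metalloproteases bound to the matrix, was lower at -1.39 ± 0.07. The cross-linking enzyme TGM2 was higher at 1.58 ± 0.08, and SERPINH1, the collagen chaperone, was lower at -0.73 ± 0.05.

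The receptors that hold cells to the matrix were higher more often than lower. Of 15 tested integrins, 8 (53.3%) were higher and 5 lower, with a median of 0.35. ITGA2, a collagen-binding subunit, was at 13.5, 14.97 and 14.9 CPM in the Veh set and 50.8, 52.0 and 56.8 CPM in the DMSO set. ITGA3 (0.75 ± 0.04) and ITGA6 (0.89 ± 0.06), laminin-binding subunits, were higher, and ITGA11 (-1.05 ± 0.10) was lower.

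Several abundant contractile genes of smooth muscle were lower in the DMSO set, while the smooth muscle and pericyte markers as a list were called both ways. ACTA2, alpha smooth muscle actin, was at 54.3, 54.9 and 56.0 CPM in the Veh set against 15.8, 14.3 and 15.3 CPM in the DMSO set. TAGLN, an actin-binding protein, was at 531, 532 and 491 against 160, 138 and 144 CPM. Both were more than 3-fold apart with no overlap. CNN1 (-1.66 ± 0.06), TPM1 (-1.72 ± 0.05), MYL9 (-1.47 ± 0.05) and the small GTPase RHOB (-1.79 ± 0.05) were lower, whereas PXN, a focal adhesion adaptor, was higher at 0.86 ± 0.05. Of 39 tested actin and contractility genes, 19 (48.7%) were lower and 7 higher, or 11 higher without DMSO 1. RHOA, MYH9, MYLK and FLNA did not pass the test. Of 13 smooth muscle and pericyte markers, 5 (38.5%) were lower and 5 (38.5%) higher, with a median of 0.04. The number higher was 2, 3 and 2 without Veh 1, Veh 2 or DMSO 2. The potassium channel regulator ABCC9 (0.99 ± 0.12) and the receptor PDGFRB (0.35 ± 0.09) were higher. LMOD1, a leiomodin in both lists, was higher at 0.30 ± 0.08, a call that was lost without Veh 1 or without DMSO 2.

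In the growth programmes, some receptor genes differed by more than any listed gene of replication or mitosis. FGFR2, a fibroblast growth factor receptor on chromosome 10, was at 26.6, 26.9 and 28.4 CPM in Veh 1 to 3 and at 0.931, 1.64 and 1.46 CPM in DMSO 1 to 3. The neurotrophin receptor NTRK3 was at 11.4, 11.3 and 11.5 against 0.683, 0.593 and 0.331 CPM, and GFRA1, the co-receptor for GDNF, at 37.1, 47.6 and 41.9 against 1.58, 2.34 and 2.40 CPM. These 3 receptors were close to silent in the DMSO set, with log2 differences of -4.32 ± 0.14 (adjusted p = 1.54e-07), -4.41 ± 0.18 and -4.31 ± 0.15. EGFR was higher in the DMSO set, at 188, 224 and 236 against 83.0, 90.1 and 102 CPM, and so was MET (0.55). DOCK4, an activator of the GTPase Rac on chromosome 7, was at 17.3, 16.4 and 16.2 against 62.7, 63.5 and 71.5 CPM, a 3.96-fold and log2 difference of 1.99 ± 0.07 (adjusted p = 2.05e-07). Of 32 tested receptors and docking proteins, 15 (46.9%) were higher and 10 (31.2%) lower. Of 25 tested growth factor genes, 7 (28.0%) were higher and 9 (36.0%) lower, against 24.4% and 24.3% of all genes, with a median of 0.08.

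Genes of the TGF-beta and BMP pathways were called in both directions, more often lower, and the ID genes of the BMP side differed strongly. BMPs signal through SMAD1 and SMAD5 to the ID genes, and NOG is a secreted antagonist. ID1 was at 31.9, 31.8 and 26.1 CPM in the Veh set and 6.55, 4.26 and 4.75 CPM in the DMSO set. BMP4 was at 46.6, 40.8 and 40.2 against 8.13, 8.46 and 9.33 CPM. Ligand and target were thus both lower in the DMSO set, together with ID2, ID3 and ID4 (log2 differences of -2.07, -2.11 and -2.92) and the activin subunit INHBA (-2.40 ± 0.10). TGFBR2, the type II TGF-beta receptor, was higher at 1.01 ± 0.05, as was SMAD3 (0.42). Of 34 tested genes, 18 (52.9%) were lower and 9 (26.5%) higher, with a median of -0.58.

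Wnt and YAP genes leaned the other way. WNT2 was lower at -3.93 ± 0.17, while the secreted Wnt antagonist SFRP1 was higher at 81.6, 78.8 and 86.8 CPM in the DMSO set against 26.8, 29.9 and 28.2 CPM in the Veh set. Of 23 tested Wnt genes, 11 (47.8%) were higher and 4 lower. Among 23 tested YAP and TAZ targets 13 (56.5%) were higher and 5 lower, led by NT5E, the CD73 ectoenzyme, at 110, 110 and 111 against 439, 432 and 427 CPM. The largest difference of this list in either direction was on the lower side, in IGFBP3 at -2.67 ± 0.07. TGFB2 was lower at -0.80 ± 0.09 and CCN1 at -0.14, and CCN2 did not pass the test.

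No listed gene of replication or mitosis reached 2-fold, while some cyclin D, CDK and CDK inhibitor genes did. Of 30 tested genes of G1, S phase and replication, 13 (43.3%, against 24.3% of all genes) were lower and 2 higher. Their differences ran from -0.59 for TK1 to 0.18 for CDT1. Of 30 genes of G2 and mitosis, 9 (30.0%) were higher and 5 (16.7%) lower. Only 4 were higher without Veh 1, without Veh 2 or without DMSO 2, and 5 without DMSO 3. With GC and length removed, 9 were lower. CCND1 (cyclin D1) was at 145, 136 and 140 CPM in the Veh set and 413, 366 and 410 CPM in the DMSO set. CDK6 (1.08 ± 0.12) and the inhibitor CDKN2B (1.36 ± 0.05) were higher, while CDK4 (-0.59 ± 0.08) and CDKN1B (-0.37 ± 0.05) were lower.

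**Figure D4:**
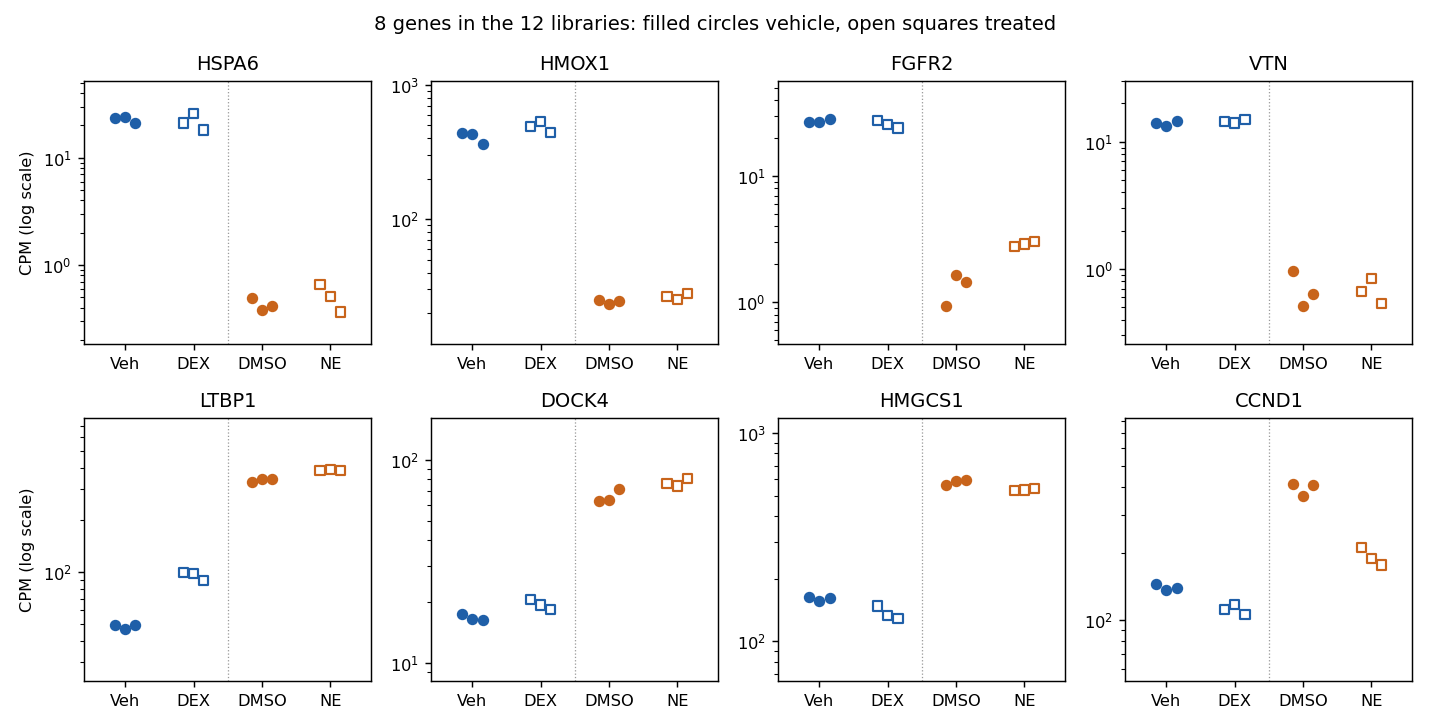
CPM (log axis) of 8 genes in the 3 libraries of each group: Veh and DEX in blue to the left of the dotted line, DMSO and NE in orange to its right, with filled circles for vehicle and open squares for treated libraries. Every Veh library lies above every DMSO library for HSPA6, HMOX1, FGFR2 and VTN, and below for LTBP1, DOCK4, HMGCS1 and CCND1.

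Sterol and fatty acid synthesis formed the most uniform difference in the other direction. The enzymes that build cholesterol from acetyl-CoA, are switched on together by SREBP2 when cell sterol is low. All 25 listed genes were tested, 23 (92.0%, against 24.4% of all genes) were higher in the DMSO set and 13 were past 2-fold, with a median log2 difference of 1.00. HMGCS1, an early synthase of the pathway, was at 164, 157 and 162 CPM in the Veh set and 566, 593 and 594 CPM in the DMSO set. INSIG1, which holds the SREBP precursor in the endoplasmic reticulum, was at 119, 114 and 109 against 279, 264 and 266 CPM. Both genes separated the sets by far more than the spread within a set, with log2 differences of 1.86 ± 0.05 and 1.24 ± 0.05.

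CYP51A1 (1.22 ± 0.04) and MSMO1 (1.49 ± 0.05) followed the same direction. SREBF2, which encodes SREBP2, had a log2 difference of 0.12 ± 0.05 and did not pass the test. PMVK, a kinase of the mevalonate steps, was lower at -0.45 ± 0.13, and its call was lost without Veh 1, without DMSO 2 or without DMSO 3 (adjusted p of 0.0654, 0.0630 and 0.0588) and with no filter on low counts (adjusted p = 0.0747). Of 13 tested fatty acid genes, 10 (76.9%) were higher and 1 lower. FASN, fatty acid synthase, was at 387, 377 and 388 CPM in the Veh set and 992, 1125 and 1169 CPM in the DMSO set, and SCD, the stearoyl-CoA desaturase, had a log2 difference of 1.17 ± 0.07.

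Promoters of 2 sterol genes are shown for the letters they share. The RefSeq windows lie at chr5:43313363-43313662 (minus strand) and chr4:165327419-165327718 (plus strand) of GRCh38.p14. Capitals mark CCAAT or its reverse complement, the box bound by NF-Y.
HMGCS1: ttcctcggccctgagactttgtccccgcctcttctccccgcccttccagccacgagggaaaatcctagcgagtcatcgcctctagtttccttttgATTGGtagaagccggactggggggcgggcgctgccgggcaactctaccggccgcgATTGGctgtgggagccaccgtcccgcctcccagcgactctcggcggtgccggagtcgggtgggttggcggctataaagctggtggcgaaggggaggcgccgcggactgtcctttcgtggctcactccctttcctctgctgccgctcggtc
MSMO1: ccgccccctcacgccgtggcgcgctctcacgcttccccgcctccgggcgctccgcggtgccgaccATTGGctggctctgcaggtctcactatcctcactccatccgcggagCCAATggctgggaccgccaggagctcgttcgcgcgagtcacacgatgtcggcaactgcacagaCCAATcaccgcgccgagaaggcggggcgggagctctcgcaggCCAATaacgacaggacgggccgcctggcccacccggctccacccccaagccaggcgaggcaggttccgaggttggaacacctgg
Here too the window of each gene with the most matches is shown. HMGCS1 held 2 matches and MSMO1 held 4. A box was found on either strand in 16 of the 18 sterol genes with a window (88.9%) and in 10846 of 27305 genes (39.7%). The sterol regulatory letters TCACNCCAC, searched on both strands, were found in 1 of the 18 (5.6%) and in 379 of 27305 (1.4%). These matches describe the windows and were not measured as bound sites.

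All 13 mitochondrially encoded genes were lower in the DMSO set, 12 of them past 2-fold, with a median log2 difference of -1.39. They encode respiratory chain and ATP synthase subunits. MT-ATP6 had a log2 difference of -1.72 ± 0.08 and MT-CO1 of -1.62 ± 0.06. Nuclear genes of the same complexes differed little: of 36 tested, 12 (33.3%) were lower and 2 (5.6%) higher, with a median of -0.15. The number lower was 20 without DMSO 1 and 5, 5, 4 and 5 without Veh 1, Veh 2, DMSO 2 or DMSO 3. Of 73 tested ribosomal protein genes 8 (11%) were lower and 1 higher. That count depended on single libraries: 45 were lower without DMSO 1 and 3 or 4 without Veh 1, Veh 2, DMSO 2 or DMSO 3. Without Veh 3 it was 13. With GC and length removed, 16 ribosomal protein genes were higher and 7 lower. After thinning to equal depth, 13 mitochondrially encoded, 12 nuclear respiratory and 11 ribosomal protein genes were lower. The part of RNA quality or library preparation in these lists was not tested.

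Most of these differences were also present in the libraries that the vehicle comparison did not use. The NE libraries of the second table were compared with the DEX libraries of the first by the same edgeR test, which called 56.4% of genes tested. That comparison holds treatment as well as set. The DEX libraries share a table with the Veh set and the NE libraries with the DMSO set. It therefore carries the same set difference by design and is not an independent test of it. Of 7425 genes called between the vehicle sets and tested in both, 6035 (81.3% of them, and 69.9% of the treated calls) were called in the same direction, and 120 in the opposite one. Within their own tables, DEX changed 10.1% and NE 2.82% of the genes tested.

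Levels here were scaled over all 12 libraries. HSPA6 was at 21.1, 25.9 and 18.1 CPM in the DEX libraries and 0.663, 0.508 and 0.365 CPM in the NE libraries. HMOX1 was at 490, 535 and 443 against 26.5, 25.1 and 28.1 CPM. Both therefore kept the set difference under treatment, at log2 differences of -5.41 and -4.20. LTBP1 was at 99.5, 97.7 and 88.7 CPM with DEX, above its Veh level, and at 386, 389 and 386 CPM with NE. DEX raised it by 0.98 on the log2 scale (adjusted p = 1.72e-08), and the treated libraries still differed by 2.02. FGFR2 was at 27.6, 25.5 and 24.1 against 2.78, 2.90 and 3.03 CPM, and NE raised it by 1.10 within its table (adjusted p = 0.0263). DOCK4 differed by 1.997 between the treated libraries. For some genes treatment removed or turned the set difference: ITGA10, an integrin alpha chain, differed by 2.14 ± 0.15 between vehicle sets and by -0.22 between treated libraries, and PTX3 by 1.14 and -1.29.

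**Figure D5:**
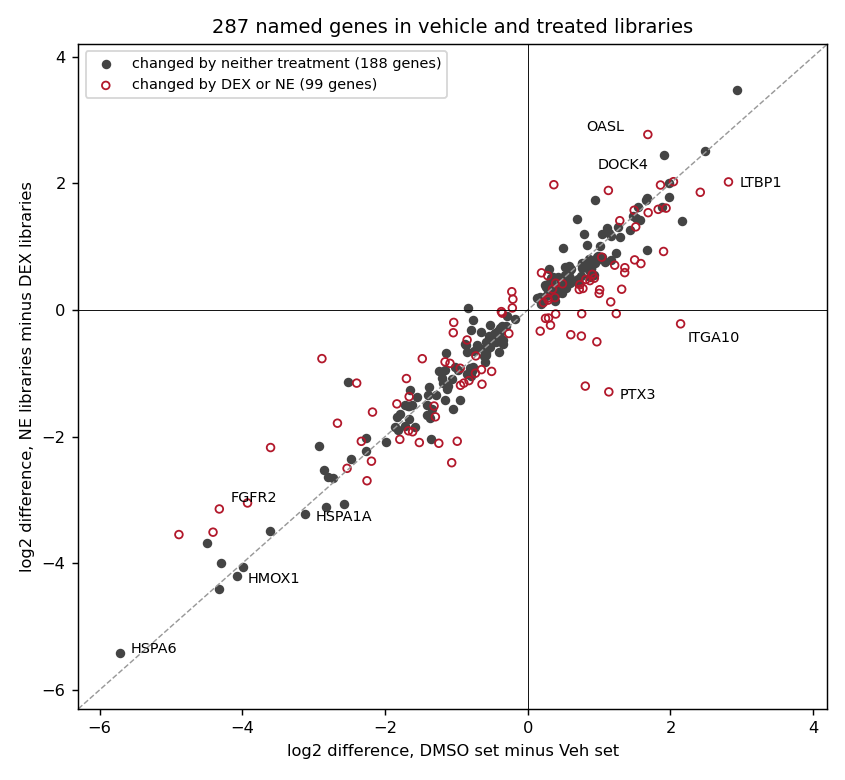
Log2 difference of the 287 named genes between the vehicle sets (horizontal axis, DMSO set minus Veh set) and between the treated libraries (vertical axis, NE minus DEX), with filled points for 188 genes that neither treatment changed, open circles for 99 that DEX or NE changed, and a dashed line of equality. HSPA6 lies at the lower left and ITGA10 and PTX3 lie off the line, and since filled points are genes without a called treatment effect, their closeness to the line is part of how they were chosen.

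The genes with the largest differences fell mostly outside the stress list. Among called protein-coding genes whose sets did not overlap and whose log2 CPM averaged at least 1, the largest differences on the lower side ran from HSPA6 at -5.72 to INHBB, an activin subunit, at -3.61. They also held ANXA8L1, NTRK3, VTN, FGFR2, GFRA1, HMOX1, MFAP5, WNT2 and CHD5. On the higher side, the largest was CYP1A1, a cytochrome P450 induced through the aryl hydrocarbon receptor, at 0.747, 0.794 and 0.540 CPM in the Veh set and 5.56, 5.34 and 4.91 CPM in the DMSO set. LTBP1, SLCO4C1, LRRC17, ABCA8, ITGA10, VEPH1, DOCK4, NT5E, KRTAP2-3, NPTX1 and STEAP1 completed those 12, down to a log2 difference of 1.90 for STEAP1. ANXA8L1 has near-identical relatives with which it can share reads, so its level is uncertain.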

How the data were processed

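RNA-seq was measured in 12 libraries, of which the 6 vehicle libraries are described. The authors deposited 1 table per experiment with expected counts per gene, judged from the values, which are not whole numbers. The sources used here give no aligner, counting tool, genome build, annotation or strand setting. Expected counts were rounded, and no sample column was left unused. Genes were kept by filterByExpr, scaled by TMM, and tested two-sided with edgeR 4.0.16 in R 4.3.3 (robust quasi-likelihood, Benjamini-Hochberg over all genes tested, adjusted p below 0.05), the DMSO set against the Veh set with no covariate. DESeq2 1.42.0 was an alternative, and limma 3.58.1 was loaded with edgeR. The edgeR fit was tested on simulated data. CPM per kb divides CPM by transcript length. The comparison of these libraries, its given markers and the 44 gene lists were chosen with earlier results of these data known, so counts over lists are descriptions. Named genes were the 5 given markers, the 12 largest called differences in each direction, up to 4 called members per list and direction, defining members of each list, and the 20 highest baseline genes. Other list members named here were chosen after their values were seen. A few listed symbols that matched no row were not analysed here, and a few named genes are not reported here. Promoters are RefSeq windows, and a gene counts as holding a motif if any of its windows does. Alternatives covered scaling, filters, rounding, depth, GC and length, the replicate block and leaving out each library.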

Additional observations from a re-analysis of the deposited data

How the results depend on the processing

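No named gene reversed under any alternative, but most were chosen for their called differences in these same libraries, so a reversal was unlikely. Lost calls were most frequent without DMSO 2, at 22 of 287 named genes, then without Veh 2 (20) and DMSO 3 (18). The number of genes called between the vehicle sets stayed within 1.5 times 7460. It was 6782 with DESeq2, 7459 with DESeq2 size factors in edgeR, 7215 with no filter on low counts, 7221 with a stricter filter, 8226 with all 12 libraries in the fit, 6933 after thinning to equal depth and 7986 with GC and length removed. Leaving out 1 library at a time gave 5805 to 8596 genes called, 2894 to 4294 higher, 2861 to 4302 lower and 1009 to 1138 past 2-fold. The highest of these counts came without DMSO 1. With mitochondrially encoded genes left out, an alternative chosen after seeing the data, 7453 genes were called. With the replicate block, 8792 genes were called, and 8739 with the block and GC and length removed. The numbers do not pair the libraries: deviations of same-numbered libraries correlated at 0.068, -0.022 and 0.086, and DMSO 1, 2 and 3 correlated best with Veh 1, 3 and 3. Of the 20 baseline genes ranked by CPM per kb, 13 were also in the top 20 by CPM not divided by length. Genes near 1 CPM rest on few counts in the shallower Veh libraries, where smaller differences are not detectable.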

Other observations

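Several abundant genes outside the lists also separated the vehicle sets, chosen here after their values were seen. HMGA1, a chromatin architectural protein, was at 250.2, 249 and 231 CPM in the Veh set and 848, 842 and 888 CPM in the DMSO set, and HMGA2 had a log2 difference of 1.73 ± 0.06. TFPI, the tissue factor pathway inhibitor, was higher in the DMSO set by 1.69 ± 0.04 and TFPI2 by 1.65 ± 0.07. CRABP2, a retinoic acid binding protein, was at 70.8, 68.7 and 68.7 against 9.87, 9.22 and 8.58 CPM. MATN2, a matrilin of the matrix, was at 271, 278 and 290.4 against 58.7, 58.8 and 59.2 CPM. The complement proteases C1R and C1S were lower by -1.85 ± 0.04 and -1.94 ± 0.06, and the imprinted gene MEST by -2.51 ± 0.08.

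Clock genes were called lower in 11 of 21 tested (52.4%, against 24.3% of all genes) and higher in 4 (19.0%, against 24.4%). PER1, a repressor of the clock, was at 27.8, 27.0 and 25.4 CPM in the Veh set and 12.6, 11.9 and 13.7 CPM in the DMSO set, while NPAS2, an activator, had a log2 difference of 1.32 ± 0.12. Of 30 lysosome and autophagy genes, 14 (46.7%) were lower and 5 (16.7%) higher, or 9 higher with GC and length removed. GABARAPL1, an autophagosome protein, was lower at -1.16 ± 0.07.

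The pseudogene RPL21P16 was listed at 0 in all libraries of the DEX table, Veh and DEX alike. Its unscaled CPM was 29.9, 17.4 and 20.8 in the DMSO libraries and 18.4, 30.5 and 36.6 in the NE libraries. Within the DMSO set, DMSO 1 exceeded the mean of DMSO 2 and DMSO 3 by a median log2 value of 0.32 over 73 ribosomal protein genes and 0.26 over 36 nuclear respiratory chain genes.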
